A study of Homo sapiens with 12 samples.

Results

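The S100 genes encode small calcium-binding proteins, and 10 of them (S100A2, S100A4, S100A6, S100A7, S100A8, S100A9, S100A11, S100A14, S100A16 and S100P) were followed by symbol in a table of 58288 genes. All 10 were among the 15973 genes that passed the filter on low values, a level of at least 1 transcript per 1000000 (TPM) in 3 or more of 12 libraries. S100A7 and S100P were low, with 5 and 6 libraries at 1 TPM or more and highest values of 3.37 and 2.16 TPM. RNA-Seq was performed on FaDu cells, a human head and neck squamous cell carcinoma line, with STING or after its loss, to learn how STING shapes gene expression at baseline and after radiation. WT cells carried Cas9 and a non-targeting guide RNA, and KO cells carried Cas9 and a guide RNA against TMEM173, the gene for STING, so that all 4 groups held Cas9 and a lentiviral guide. Each line was either left unirradiated or given 4 daily fractions of 2 Gy (RT), with 3 libraries per group. There was a single WT line and a single KO line, so genotype and line cannot be told apart, and whether the KO line was a clone is not given in the sources used here.

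S100 proteins carry a pair of EF-hand loops, mostly act as dimers, and expose a binding surface for target proteins when calcium enters the loops. Inside cells they dock onto annexins, cytoskeletal proteins and p53, and several of them are released and bind receptors such as RAGE (AGER) and TLR4. In stratified squamous epithelium a number of them are constitutively abundant, whereas S100A7, S100A8 and S100A9 are known for their induction in wounded or inflamed keratinocytes. S100A8 and S100A9 together form calprotectin, which withholds zinc and manganese from microbes.

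TMEM173 was lower in all 6 KO libraries than in any WT library. It stood at 21.7, 23.5 and 21.1 TPM in the unirradiated WT libraries and at 5.18, 5.29 and 6.96 TPM in the unirradiated KO libraries, and after RT at 21.4 to 26.1 TPM in WT and 6.35 to 7.41 TPM in KO. Its log2 difference, KO minus WT on the log2(TPM + 1) scale, was −1.77 unirradiated (adjusted p = 1.2e-05, limma with Benjamini-Hochberg adjustment over all tested genes) and −1.60 after RT (adjusted p = 2.0e-05). A guide RNA cuts the gene and need not remove its transcript, so this level is no measure of the protein. All 8 squamous epithelial markers, among them KRT5, KRT14 and TP63, were detected, with a sum of 7235 to 10072 TPM. Sequencing depth cannot be read from TPM, so the counting error of the levels is unknown. The p-values measure the spread between libraries, which are not stated to be separate cultures.

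Of the set, 9 genes lay on chromosome 1 in the stretch from S100A10 to S100A1 (GRCh38, 151982915 to 153632039, 1.65 Mb, GENCODE 29), which includes the epidermal differentiation genes and holds 90 annotated genes in all, 17 of them S100 genes. S100P lay apart on chromosome 4 (6693069 to 6697170, plus strand). S100A11 (152032506 to 152047907, minus strand) sat at the far end of the stretch beside S100A10, and the remaining 8 sat together between S100A9 (153357854 to 153361027, plus strand) and S100A14 (153614255 to 153616986, minus strand).

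**Figure D1:**
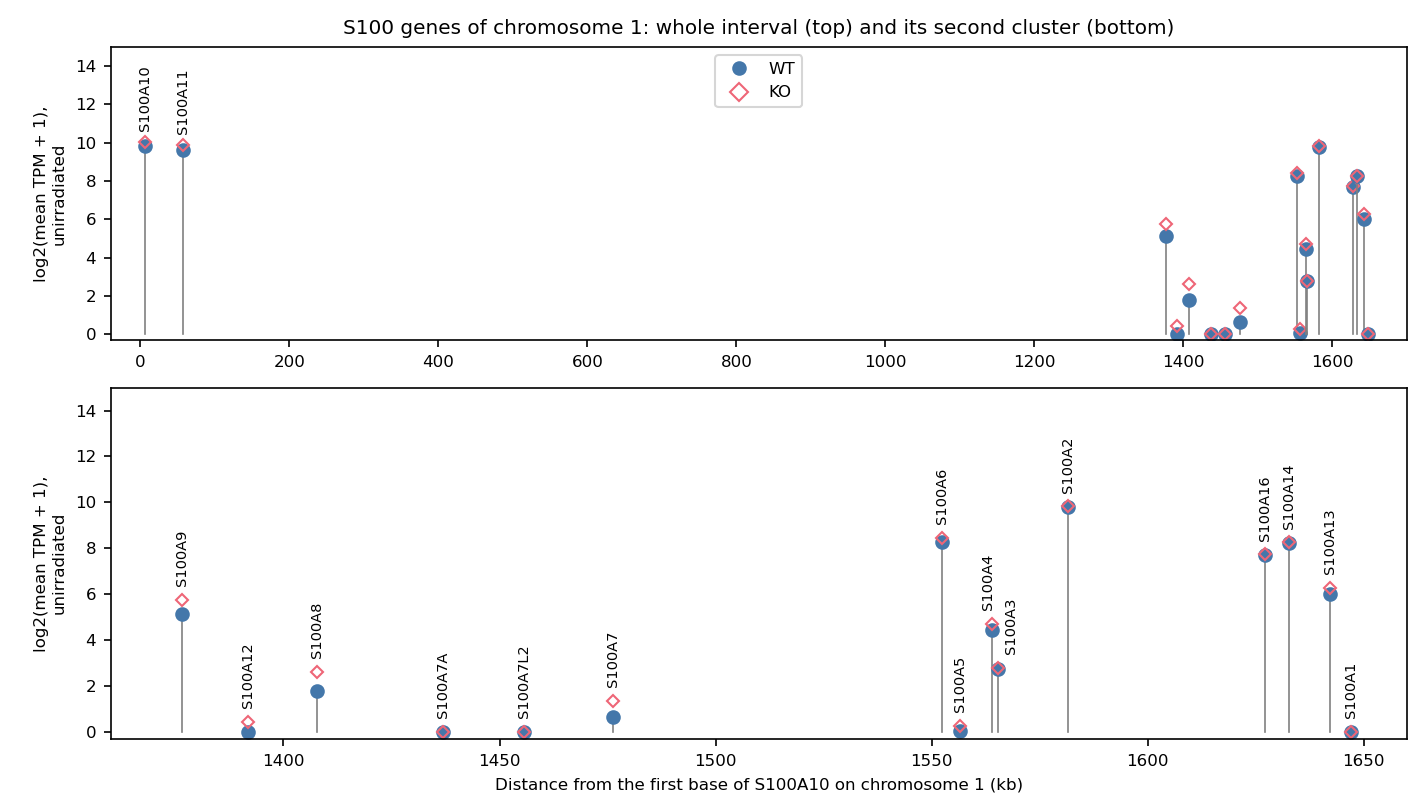
Level of every S100 gene of chromosome 1 in unirradiated cells, as log2 of the group mean TPM plus 1, against its distance in kb from the start of S100A10, with WT as filled circles and KO as open diamonds; the lower panel enlarges the right-hand cluster. Abundant genes (S100A10, S100A11, S100A2, S100A6) and genes near 0 (S100A7A, S100A7L2, S100A1) lie side by side, and the largest gaps between genotypes are at S100A8, S100A9 and S100A7.

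Promoter sequence is shown for S100A9 and S100A11, whose libraries separated by genotype in the values that follow, and for S100A2, which was about as abundant as S100A11 and did not separate. Each is the stretch within 250 bases upstream of the RefSeq start (GRCh38), read 5′ to 3′ on the gene's own strand, without bases that fall in an annotated exon. Capitals mark matches to the motifs searched.
S100A9, chr1:153357604-153357853, plus strand: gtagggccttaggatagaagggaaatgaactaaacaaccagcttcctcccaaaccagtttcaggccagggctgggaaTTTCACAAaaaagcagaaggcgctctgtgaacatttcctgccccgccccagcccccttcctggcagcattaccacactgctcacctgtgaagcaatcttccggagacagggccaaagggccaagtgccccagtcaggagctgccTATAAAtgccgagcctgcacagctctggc
S100A11, chr1:152037036-152037254, minus strand: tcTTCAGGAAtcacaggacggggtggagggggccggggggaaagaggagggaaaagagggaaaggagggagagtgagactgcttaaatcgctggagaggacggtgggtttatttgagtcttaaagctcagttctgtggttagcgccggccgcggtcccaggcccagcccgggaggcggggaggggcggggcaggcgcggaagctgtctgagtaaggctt
S100A2, chr1:153565866-153566094, minus strand: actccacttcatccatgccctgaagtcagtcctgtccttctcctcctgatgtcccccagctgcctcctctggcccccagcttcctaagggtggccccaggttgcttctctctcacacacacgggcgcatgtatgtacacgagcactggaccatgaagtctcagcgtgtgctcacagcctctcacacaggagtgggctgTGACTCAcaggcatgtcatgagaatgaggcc

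The capitals are TTTCACAA, a C/EBP-type match on the reverse strand, and TATAAA in S100A9, the C/EBP-type match TTCAGGAA in S100A11, and the AP-1 match TGACTCA in S100A2. A further C/EBP-type match in S100A11, TTGGGCAA, began 33 bases before the start and is cut off by the exon bases left out. Motifs were searched on both strands of the 250 bases before the start in all 10 genes, without leaving out exons, and no match overlapped another. All 250 bases of the S100A6 and S100P windows and 212 of the S100A8 window fell in annotated exons. The RefSeq start used lay 224 bases from the GENCODE start for S100A6 and 809 bases for S100P. Matches in these 3 windows may thus lie in exons, and the TATAAA of S100A8 began 126 bases before its start. The windows of S100A2, S100A4, S100A11, S100A14 and S100A16 also lay between the first and last annotated base of their gene. The printed stretches of S100A2 and S100A11 are therefore upstream of the RefSeq start but inside the annotated gene. A TATA box, TATAAA, was present in 5 of 10 (S100A4, S100A7, S100A8, S100A9 and S100P) and in 10.7% of 35116 promoter windows of the same length. The C/EBP-type pattern TTNNGNAA was in 6 of 10, against 33.2% of windows, and the AP-1 pattern TGANTCA in 1 of 10 (S100A2), against 6.57%. The core of the interferon-stimulated response element, GAAA, any 2 bases and GAAA, was in 0 of 10 windows and in 3.02% of all windows. Such a match is a run of letters and was not measured as a bound site.

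The 10 S100 genes covered a wide range of levels, with 5 abundant genes above the rest of the 10. S100A10, which is not among the 10, was abundant as well. In unirradiated WT cells S100A2 averaged 890 ± 42.9 TPM (SD, n = 3), S100A11 789 ± 19.1, S100A6 306 ± 10.4, S100A14 303 ± 4.81 and S100A16 209 ± 22.6 TPM. S100A9 followed at 34.2 ± 7.75 TPM and S100A4 at 21.0 ± 2.58 TPM, and S100A8, S100P and S100A7 were at 2.50 ± 1.88, 1.74 ± 0.367 and 0.572 ± 0.99 TPM. Libraries of S100A6 and S100A14 overlapped, as did those of S100A8, S100P and S100A7, whereas the other neighbours in this order were apart. In KO cells S100A11 and S100A2 were no longer apart, unirradiated (939 and 909 TPM) or after RT (866 and 869 TPM). The 5 abundant genes held 96.0 to 98.2% of the summed level of the 10 genes in every library.

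**Figure D2:**
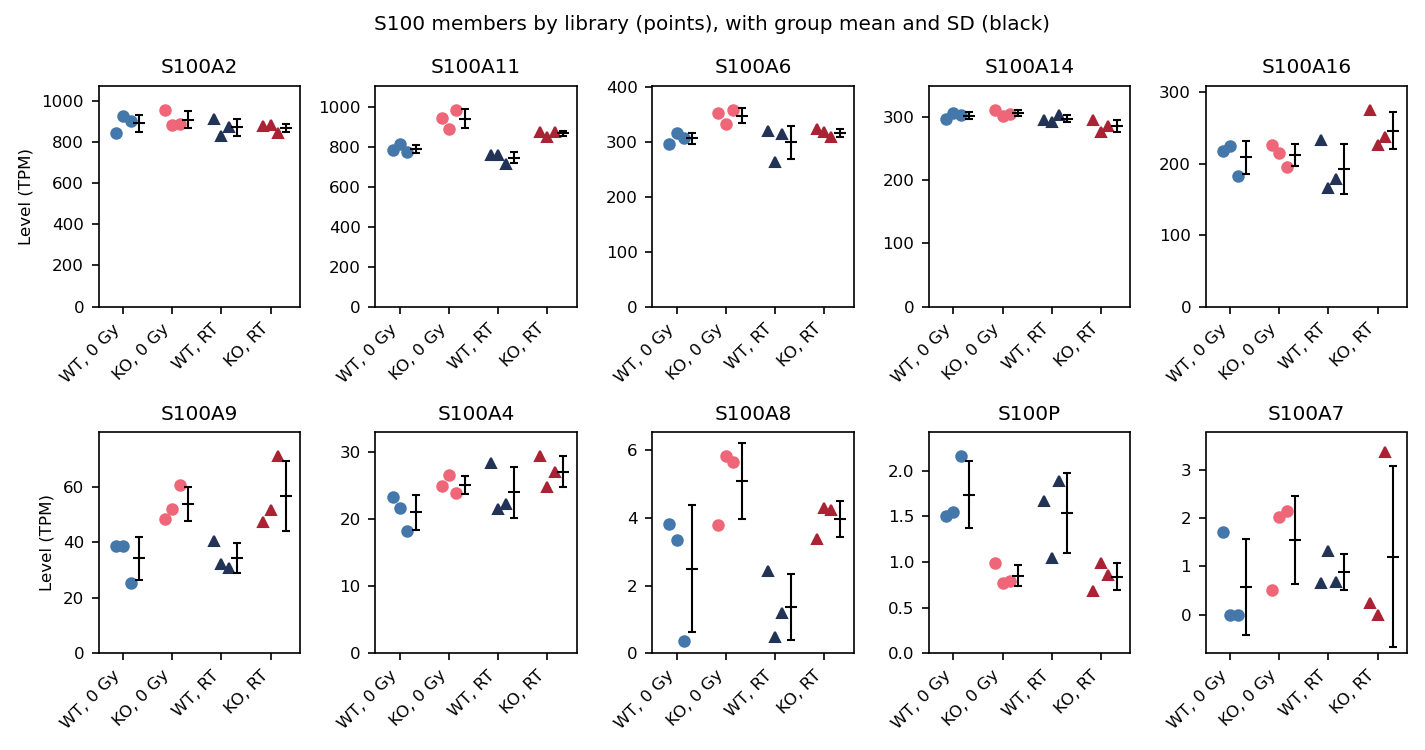
Level in TPM of each of the 10 S100 genes in every library, by group, with circles for unirradiated and triangles for RT, blue for WT and red for KO, and the group mean ± SD in black. All 6 KO libraries lie above all 6 WT libraries for S100A9 and S100A11 and below them for S100P; the SD of S100A7 reaches below 0 because 3 of its libraries are listed at 0.

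STING loss was accompanied by a higher S100A11 level, by 19.1% of its WT mean in unirradiated cells and by 16.4% after RT. The mean of S100A9 was 56.8% and 65.0% above that of WT and the mean of S100A8 104% and 191%, but neither passed the test over all genes, and S100P was lower without passing it. In the unirradiated comparison 1 of 10 genes passed (S100A11, higher), where 1.73% of all tested genes passed and 0.463% passed as higher, and 4 of 10 had an unadjusted p under 0.05, against 14.3%. After RT it was again 1 of 10 (S100A11, higher), where 3.59% of all genes passed and 0.927% as higher, and 5 of 10 had an unadjusted p under 0.05, against 17.9%. S100P is among those under 0.05 in each arm, and it passed the filter only through its WT libraries, where it was high. The median log2 difference of the 10 was 0.22 unirradiated and 0.13 after RT, and that of all tested genes −0.02 in each.

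S100A11, which binds annexin A1 and is known from keratinocyte growth control and membrane repair, stood at 782, 811 and 775 TPM in unirradiated WT libraries and at 944, 890 and 985 TPM in unirradiated KO libraries. After RT it was at 759, 759 and 712 TPM in WT and at 872, 849 and 875 TPM in KO. The KO libraries were higher than the WT libraries in both arms without overlap. The log2 difference was 0.25 unirradiated (SE 0.045, adjusted p = 0.017, limma; 19.1% above the WT mean) and 0.22 after RT (SE 0.045, adjusted p = 0.024, limma; 16.4%). Its size stayed between 0.19 and 0.29 in the 20 alternatives run for each arm, but the call held in only 12 of them unirradiated and in 10 after RT. AL450992.1 overlaps S100A11 on the opposite strand, and the strand setting is not given.

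S100A9, the larger subunit of calprotectin, was listed at 38.8, 38.6 and 25.3 TPM in unirradiated WT and at 48.5, 52.0 and 60.5 TPM in unirradiated KO. In the irradiated libraries it was at 40.5, 32 and 30.5 TPM in WT and at 47.3, 51.8 and 71.0 TPM in KO. Every KO library thus lay above every WT library, the closest being 47.3 and 40.5 TPM. The log2 differences were 0.65 (95% interval 0.22 to 1.08, adjusted p = 0.15, limma) and 0.70 (0.26 to 1.13, adjusted p = 0.086), and the exact permutation p was 0.1 in each arm, the smallest that 3 against 3 can give. After RT 1 of 20 alternatives passed, the shared fit without replicate 3 of unirradiated WT (adjusted p = 0.048, limma). That library is in neither irradiated group. Across the alternatives the adjusted p after RT reached 0.24, and unirradiated 0 of 20 passed.

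S100A8, its calprotectin partner, was at 3.82, 3.34 and 0.347 TPM in unirradiated WT and at 3.80, 5.83 and 5.66 TPM in unirradiated KO. After RT the levels were 2.43, 0.484 and 1.19 TPM in WT and 3.37, 4.31 and 4.25 TPM in KO. The irradiated groups did not overlap, and the unirradiated groups overlapped at 3.80 and 3.82 TPM. The log2 difference was 0.99 unirradiated (95% interval −0.01 to 1.98, adjusted p = 0.36, limma) and 1.15 after RT (0.16 to 2.15, adjusted p = 0.21). Without replicate 3 of unirradiated WT, the lowest library for S100A8 and for S100A9, the unirradiated difference was 0.40, and with a pseudocount of 0.1 it was 1.49. The level of S100A9 was 8.92 to 73.0 times that of S100A8 across libraries, so the calprotectin pair was far from equal at the RNA level.

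S100A8 and S100A9 are also the most abundant cytosolic proteins of neutrophils, so leukocyte markers were examined. CSF3R, ELANE and FCGR3A were at 0 in all 12 libraries and PTPRC did not exceed 0.0894 TPM. The 10 leukocyte and myeloid markers summed to 3.52 to 4.32 TPM in WT and to 4.35 to 5.79 TPM in KO, most of it CD14. CD14 was higher in unirradiated KO than WT (4.07 and 2.82 TPM, log2 difference 0.40, adjusted p = 0.043, limma; the call held in 5 of 19 alternatives). That was 1 of 2 tested markers, where 0.463% of all tested genes passed as higher. ITGAM, the other, was at 0.782 TPM in unirradiated KO and 0.935 TPM in WT. After RT neither passed, with CD14 at 3.19 TPM in KO and 3.05 TPM in WT, and ITGAM at 1.17 and 0.659 TPM. The part of CD14 in the S100A8 and S100A9 levels was not tested.

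S100A7, psoriasin, was close to undetected. It was at 1.72, 0 and 0 TPM in unirradiated WT and at 0.502, 2.02 and 2.14 TPM in unirradiated KO, and after RT at 0.660, 1.32 and 0.680 TPM in WT and 0.238, 0 and 3.37 TPM in KO. The groups overlapped in each comparison, and the 95% intervals of its log2 differences, −0.47 to 2.06 unirradiated and −1.35 to 1.18 after RT, hold large changes in either direction. With a pseudocount of 0.1 the differences were 2.43 and −0.95. S100A7A and S100A7L2 are close copies of S100A7, and how the authors' counting split reads between them is not given.

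S100P, the member on chromosome 4 and a ligand of RAGE, was at 1.51, 1.55 and 2.16 TPM in unirradiated WT and at 0.985, 0.771 and 0.794 TPM in unirradiated KO. After RT it was at 1.67, 1.04 and 1.89 TPM in WT and at 0.680, 0.984 and 0.856 TPM in KO. The WT libraries were above the KO libraries in both arms, although by a narrow margin after RT, 1.04 against 0.984 TPM. The log2 differences were −0.56 (95% interval −0.90 to −0.22, adjusted p = 0.12, limma) and −0.45 (−0.79 to −0.11, adjusted p = 0.15). With a pseudocount of 0.1 in place of 1 the differences were −0.94 and −0.77 (adjusted p = 0.12 and 0.15). All 6 WT libraries and no KO library reached 1 TPM, so S100P passed the filter only through the group in which it was high. Its differences and p-values are therefore given as a description.

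The remaining 5 genes showed small differences or none past the test. S100A6, or calcyclin, which binds CACYBP, was at 295, 316 and 307 TPM in unirradiated WT and at 352, 332 and 358 TPM in unirradiated KO (log2 difference 0.18, adjusted p = 0.26, limma), and its groups overlapped after RT (0.09, adjusted p = 0.57). S100A4, which binds non-muscle myosin and is known from cell migration, was at 23.2, 21.6 and 18.2 TPM in WT and at 24.8, 26.5 and 23.8 TPM in KO, unirradiated (0.25, adjusted p = 0.37), and overlapped after RT (0.17, adjusted p = 0.50). S100A16 was at 218, 225 and 183 TPM in unirradiated WT and at 227, 215 and 196 TPM in unirradiated KO, with a log2 difference of 0.03 (adjusted p = 0.95). After RT it was at 233, 167 and 179 TPM in irradiated WT and at 276, 226 and 238 TPM in irradiated KO, with groups that overlapped and a log2 difference of 0.36 (adjusted p = 0.18).

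S100A2 and S100A14 were the steadiest of the set. S100A2, an epithelial S100 protein linked to p53, ranged from 829 to 958 TPM over the 12 libraries (coefficient of variation 4.15%) and differed between KO and WT by 0.03 on the log2 scale unirradiated (95% interval −0.08 to 0.15) and by −0.003 after RT (−0.12 to 0.11). S100A14 ranged from 276 to 312 TPM (3.31%), with differences of 0.02 (−0.06 to 0.10) and −0.06 (−0.14 to 0.02). All 4 intervals lie within 0.15 of 0. The level of S100A11 over that of S100A2, a ratio within a library, was 0.817 to 0.928 in WT and 0.964 to 1.11 in KO.

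**Figure D3:**
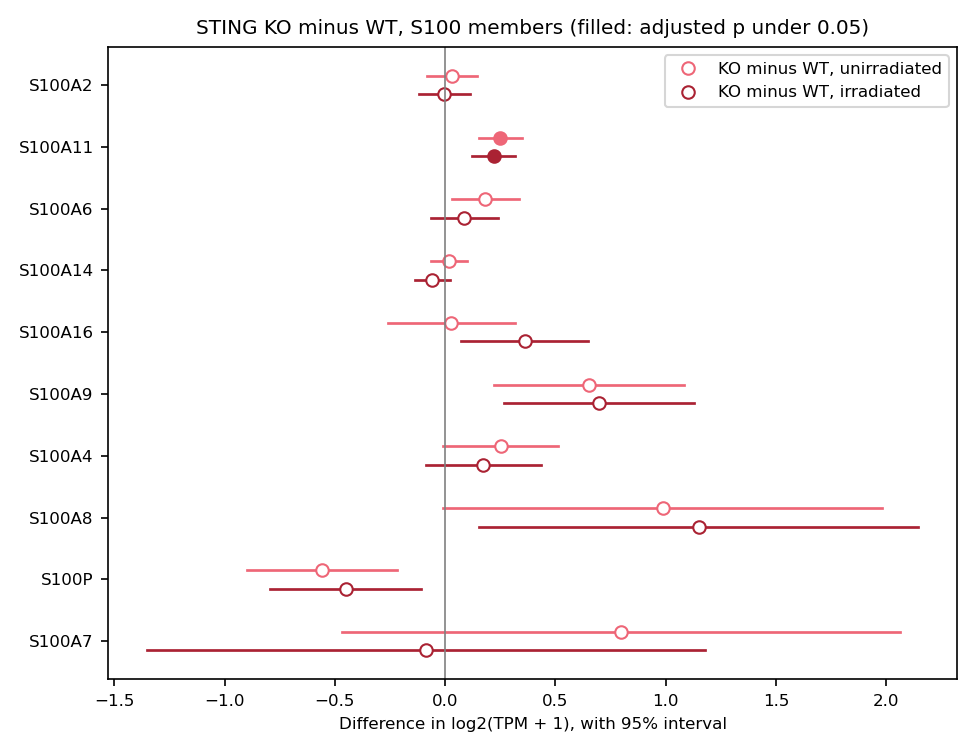
Difference in log2(TPM + 1), KO minus WT, for each S100 gene in unirradiated and irradiated cells, with 95% intervals from the fit over all genes; filled points passed the test. S100A11 alone is filled, at 0.25 and 0.22, and the intervals of S100A8 and S100A7 are the widest.

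Counting only whether libraries were apart gave a wider group. Unirradiated, 4 of 10 genes had every KO library above every WT library (S100A4, S100A6, S100A9 and S100A11) and 1 had every KO library below (S100P), where 8.51% and 12.1% of all tested genes were apart in those directions. After RT 3 of 10 were higher (S100A8, S100A9 and S100A11) and 1 was lower (S100P), against 9.62% and 14.5%. Over both arms together, 6 KO against 6 WT libraries, 2 of 10 were higher (S100A9 and S100A11) and 1 was lower (S100P), against 1.19% and 2.8%. S100P passed the filter only through its WT libraries, where it was high, so its place in these counts is a description only. The summed level of the 10 genes was 2557 ± 79.1 TPM in WT and 2802 ± 84.3 TPM in KO, unirradiated, and 2466 ± 117 and 2672 ± 49.1 TPM after RT.

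Fractionated radiation left the S100 set with no called change, which with 10 genes is near the share of all genes. In WT cells 0 of 10 genes passed the limma test and 0 of 10 had an unadjusted p under 0.05, where 3.74% and 18.2% of all tested genes did. In KO cells 0 of 10 passed and 2 of 10 (S100A11 and S100A14) had an unadjusted p under 0.05, against 3.69% and 18.1%. Of the alternatives run, none called a member as changed by radiation. The difference between the radiation effects, KO minus WT, passed for 0 of 10 genes, with 0 of 10 at an unadjusted p under 0.05, against 0.0188% and 6.61% of all genes.

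Among the abundant genes S100A11 had libraries apart by radiation in each genotype, without passing the test. Its mean differed by −5.77% from the unirradiated mean in WT (log2 difference −0.09, adjusted p = 0.35, limma) and by −7.85% in KO (−0.12, adjusted p = 0.20), and its irradiated libraries lay below the unirradiated ones in each genotype. S100A6 and S100A14 were also apart in KO cells, at −0.14 (adjusted p = 0.33) and −0.10 (adjusted p = 0.17). That made 1 of 10 genes apart as lower in WT, near the 10.1% of all tested genes, and 3 of 10 in KO, against 10.6%. As higher, 0 of 10 were apart in each genotype, against 14.7% and 13.7%. With both genotypes together, 6 irradiated against 6 unirradiated libraries, 0 of 10 genes were apart, against 5.25%.

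For the inducible members the radiation intervals were wide. S100A9 differed by 0.02 in WT (95% interval −0.41 to 0.45) and by 0.06 in KO (−0.37 to 0.49), and S100A8 by −0.45 (−1.44 to 0.55) and −0.28 (−1.28 to 0.71). S100A7 had the widest, −0.85 to 1.68 in WT and −1.73 to 0.80 in KO. A rise of 0.65, the unirradiated difference between genotypes in S100A9, lies outside both radiation intervals of that gene.

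**Figure D4:**
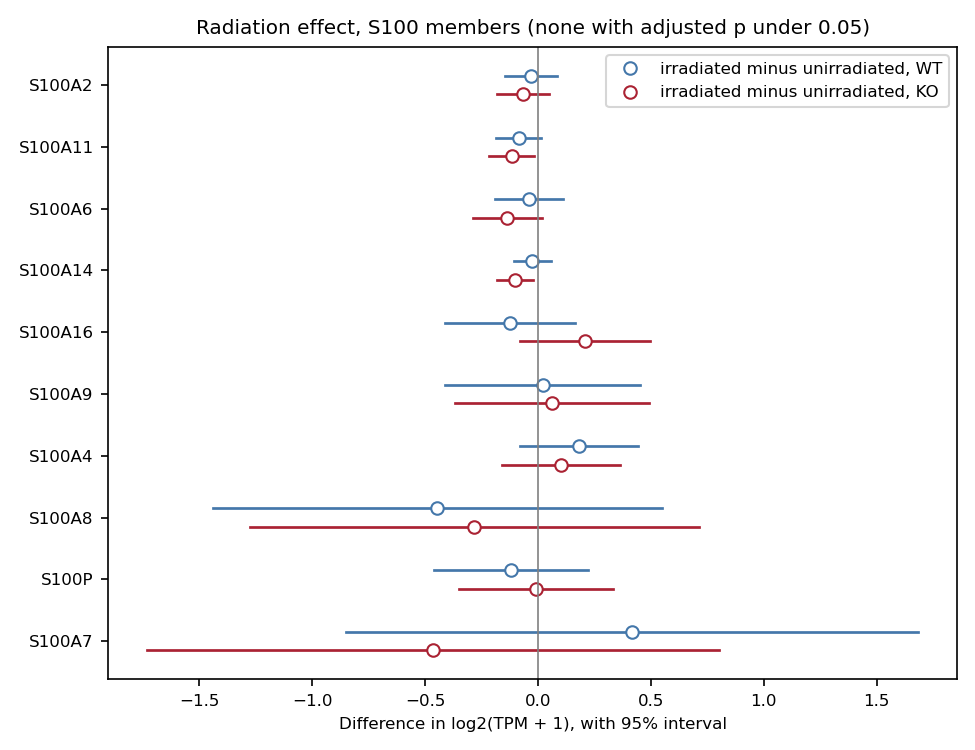
Difference in log2(TPM + 1), irradiated minus unirradiated, for each S100 gene in WT and KO cells, with 95% intervals from the fit over all genes. No point passed the test; S100A2, S100A11, S100A6 and S100A14 lie within 0.14 of 0, and the intervals of S100A7 and S100A8 are the widest.

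Some members moved together from library to library. Over the 12 libraries, which share the 4 groups, Pearson's r of log2(TPM + 1) was 0.87 for S100A8 with S100A9, 0.79 for S100A9 with S100A11 and 0.77 for S100A4 with S100A16, and −0.80 for S100A9 with S100P. Within a genotype (n = 6) S100A8 with S100A9 was at 0.88 in WT and 0.35 in KO, S100A9 with S100A11 at 0.34 and 0.10, S100A9 with S100P at −0.42 and 0.03, and S100A4 with S100A16 at 0.62 and 0.88. S100A9 was thus less correlated with S100A11 and S100P within a genotype than over all libraries, whereas S100A4 and S100A16 varied together within each genotype. The genes outside the family most like the mean of S100A8 and S100A9 were PERP (r = 0.93), a desmosome-associated p53 target, BMPR2 (0.92), NEK7 (0.92), TMEM56 (0.91) and EXOC8 (0.91), and none of these 5 passed the test in a KO or radiation comparison.

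**Figure D5:**
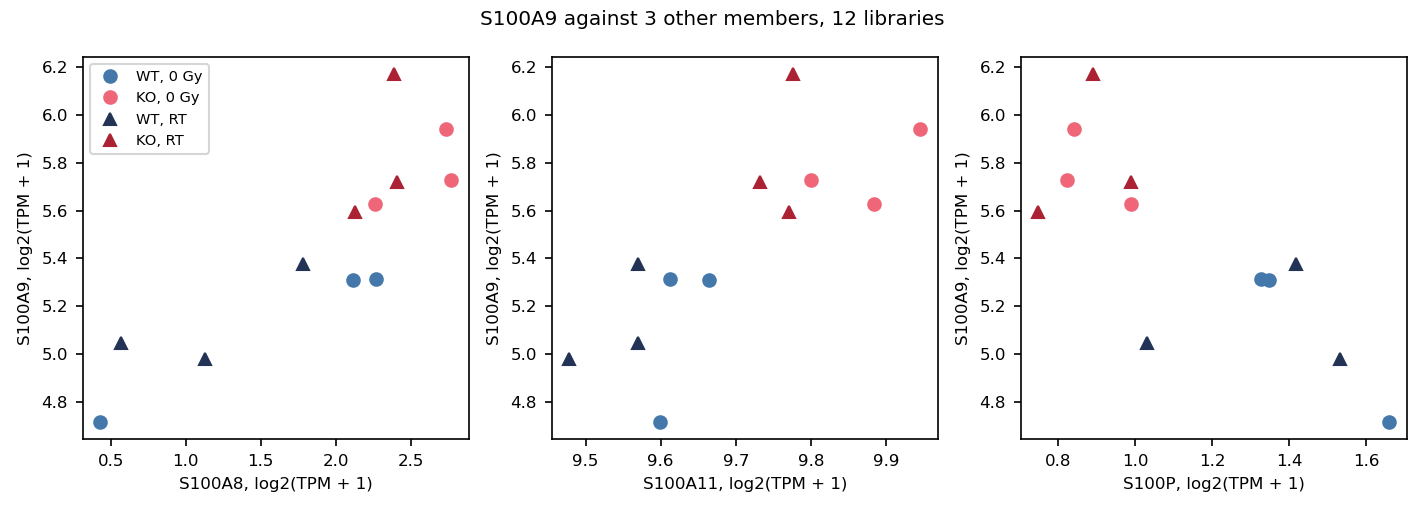
Log2(TPM + 1) of S100A9 against S100A8, S100A11 and S100P, a point per library, with circles for unirradiated, triangles for RT, blue for WT and red for KO. S100A8 rises with S100A9 among the 6 WT points (r = 0.88) and less so among the 6 KO points (r = 0.35). In the S100A11 and S100P panels the points form a WT and a KO cloud.

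Of the other 11 S100 genes, 3 passed the filter. S100A10, the partner of annexin A2, ranged from 836 to 1423 TPM, with libraries that overlapped those of S100A2 in unirradiated WT, and its KO minus WT difference was 0.21 (adjusted p = 0.52, limma) unirradiated and 0.32 (adjusted p = 0.23) after RT. S100A3 rose with radiation in KO cells, from 7.31, 5.22 and 5.41 TPM to 9.68, 8.94 and 8.26 TPM (log2 difference 0.52, adjusted p = 0.032; the call held in 12 of 20 alternatives), while in WT the difference was 0.27 (adjusted p = 0.24), and the difference between the genotypes was 0.25 (adjusted p = 0.84). S100A3 lies inside S100A4 on the same strand, so the reads of the pair are hard to assign. S100A13 was at 23.0, 73.3 and 46.6 TPM in irradiated KO libraries and at 60.3 to 81.5 TPM in the other 9, and its KO minus WT difference after RT was −0.74 (adjusted p = 0.23). That value rested on single libraries, at −0.30 (adjusted p = 0.36) without replicate 1 of irradiated KO and −1.12 (adjusted p = 0.036) without replicate 2.

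The fused-type S100 proteins carry an S100 domain in a long repeat protein of the cornified layer, as filaggrin (FLG) and trichohyalin (TCHH) do. Of the 7, TCHHL1 alone passed the filter. It was at 0.360, 0.302 and 0.281 TPM in unirradiated WT and at 0.906, 1.05 and 1.13 TPM in unirradiated KO, and after RT at 0.669, 0.280 and 0.461 TPM in WT and 1.44, 1.59 and 2.02 TPM in KO. The KO libraries lay above the WT libraries in both arms. All 5 of its libraries at 1 TPM or more were KO libraries, so the filter admitted it only through the group in which it was high, and these levels are given as a description.

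No receptor for secreted S100 proteins passed the test, which with 3 tested genes is near the share of all genes. Of 5, AGER (RAGE), BSG and ALCAM passed the filter, and TLR4, the calprotectin receptor, was listed at 0 in all 12 libraries. In each of the 5 comparisons 0 of the 3 tested passed, where 0.0188% to 3.74% of all tested genes did. AGER alone had an unadjusted p under 0.05, in unirradiated KO against WT (0.23, adjusted p = 0.29, limma), where 14.3% of all tested genes did. BSG was abundant at 673 to 795 TPM, ALCAM was at 167 to 272 TPM and AGER at 9.40 to 12.3 TPM.

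All 15 intracellular partners of S100 proteins were tested. This list, like the members and the other lists, was drawn up with earlier results of these data known. Its counts beside the shares of all tested genes are therefore a description. In unirradiated KO against WT 0 of 15 passed (limma; 4 at an unadjusted p under 0.05), where 1.73% and 14.3% of all tested genes did. After RT 3 of 15 were higher in KO, where 0.927% of all tested genes were, namely AHNAK (254 against 132 TPM, log2 difference 0.94, adjusted p = 1.8e-05), PPP5C (48.8 against 39.4 TPM, 0.30, adjusted p = 0.022) and ANXA2 (1525 against 1295 TPM, 0.23, adjusted p = 0.012). Unirradiated, PPP5C had the opposite sign (38.1 TPM in KO against 42.6 in WT, −0.16, adjusted p = 0.25, limma), while AHNAK was at 0.07 and ANXA2 at 0.09. AHNAK is a giant scaffold of the S100A10 and annexin A2 complex, and PPP5C a phosphatase that S100 proteins bind. AHNAK fell with radiation in WT, from 274 to 132 TPM (−1.05, adjusted p = 2.5e-05), and its difference between the radiation effects, 0.87, passed the test (adjusted p = 0.018; held in 11 of 19 alternatives). Radiation raised PPP5C (0.35, adjusted p = 0.011) and ANXA2 (0.19, adjusted p = 0.033; held in 6 of 20 alternatives) in KO cells. ANXA1, the partner of S100A11, did not pass in any comparison, at −0.06 (adjusted p = 0.66) and −0.09 (adjusted p = 0.47) in KO against WT.

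Of 15 genes for cytokines, receptors and factors known to induce S100A7, S100A8 and S100A9, 13 were tested. In KO against WT 1 of 13 was lower unirradiated, IL1B (134 against 165 TPM, log2 difference −0.30, adjusted p = 0.027, limma; held in 11 of 20 alternatives), and 1 of 13 was lower after RT, IL6 (3.07 against 7.66 TPM, −1.09, adjusted p = 0.0075), and 0 were higher, where 1.73% and 3.59% of all tested genes passed in either direction. Radiation raised IL6 (1.64, adjusted p = 0.0011), IL1B (0.31, adjusted p = 0.019) and IL1A (0.26, adjusted p = 0.044; held in 5 of 20 alternatives) in WT, and in KO it raised IL1B (0.41, adjusted p = 0.0048) and lowered CEBPB (−0.31, adjusted p = 0.0071), a C/EBP factor. These were 3 of 13 in WT and 2 of 13 in KO, against 3.74% and 3.69% of all tested genes. S100A8 and S100A9 passed in neither radiation comparison.

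Other genes of the same epithelial setting moved in both directions. Of 10 antimicrobial proteins 5 were tested, and RNASE7 rose with radiation in WT (2.60 to 4.35 TPM, log2 difference 0.58, adjusted p = 0.036, limma; held in 8 of 19 alternatives). That was 1 of 5, where 3.74% of all tested genes passed, and the only call among them in the 5 comparisons. Of 16 squamous differentiation genes 8 were tested. KRT4, a keratin of the upper mucosal layers, was higher in KO (58.5 against 25.0 TPM, 1.2, adjusted p = 1.6e-04, and 24.7 against 8.67 TPM after RT, 1.41, adjusted p = 3.1e-05) and fell with radiation by 1.42 in WT (adjusted p = 9.7e-05) and 1.21 in KO (adjusted p = 3.4e-04).

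SCEL, sciellin, was higher in irradiated KO than WT (log2 difference 0.42, adjusted p = 0.033, limma; held in 10 of 20 alternatives), so that 1 of 8 of these differentiation genes passed as higher in KO unirradiated and 2 of 8 after RT, with none lower, where 0.463% and 0.927% of all tested genes passed as higher. With radiation, SPRR1B, a cornified envelope precursor, rose in WT (0.82, adjusted p = 0.014) and KO (0.95, adjusted p = 0.0063), and TGM1, the cross-linking transglutaminase, fell in WT (−0.62, adjusted p = 0.022) and KO (−0.83, adjusted p = 0.0054), as did SCEL in WT (−0.40, adjusted p = 0.043; held in 7 of 20 alternatives). In all, 1 of 8 rose and 3 of 8 fell in WT, and 1 of 8 rose and 2 of 8 fell in KO, where 3.74% and 3.69% of all tested genes passed in either direction.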

How the data were processed

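Total RNA was enriched for polyadenylated transcripts and sequenced as paired ends on a NovaSeq. What the authors deposited is 1 table of TPM, transcripts per 1000000, for 58288 genes in 12 libraries, each summing to 1000000 TPM. The submitters' processing notes name HISAT2, StringTie, DESeq2 and hg38 without versions. The annotation, the strand setting and the time of collection after radiation are not given in the sources used here. Columns headed NT2 were taken as WT, after the non-targeting guide of the methods, and those headed A63 as KO, the remaining cells.

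The deposited values were taken to log2(TPM + 1) and 15973 genes with at least 1 TPM in 3 or more libraries were tested. The tool was limma 3.58.1 in R 4.3.3, with a mean for each of 4 groups (eBayes with trend, 8 residual degrees of freedom) for 5 contrasts, with Benjamini-Hochberg adjustment over all tested genes and a threshold of 0.05. A count test was not possible on TPM. The code was tested on simulated data. Two-sided exact permutation tests compared 3 with 3 libraries. Gene positions are from GENCODE 29, in which 55661 of the 58288 identifiers matched, and promoter windows from RefSeq (GRCh38), in which all 10 members matched. No sequence of the proteins was used.

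The members and lists were chosen with earlier results of these data known, and the lists were compiled from general knowledge. Their counts beside the shares of all tested genes are therefore descriptions. Named in the text are all 10 members, TMEM173, the tested genes of the remaining S100 family, the genes of each other list past the threshold in any contrast (at most the 3 largest per contrast and direction) and the 5 genes most correlated with S100A8 and S100A9; the receptors, ANXA1, FLG, TCHH and the markers were added after their values were seen. Alternatives were another pseudocount, other filters, other scalings, no trend, a replicate block, a fit to only the libraries compared, and leaving out each library.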

Additional observations from a re-analysis of the deposited data

Results flagged for a closer look

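AHNAK, a binding partner of the S100A10 and annexin A2 complex, was picked out because its radiation effects in KO and WT cells differed. The difference, KO minus WT on the log2(TPM + 1) scale, was 0.87 (SE 0.092, adjusted p = 0.018, limma). AHNAK was at 248, 295 and 280 TPM in unirradiated WT libraries and at 137, 127 and 130 TPM after RT, against 298, 296 and 270 TPM and 251, 257 and 253 TPM in KO. No S100 gene was picked out in this way.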

How the results depend on the processing

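For the 10 S100 genes, 18 values under an alternative lost a call, 1 gained one and 956 kept their side of the threshold. The sign differed from the reported value in 37 of these values, none of them of a called difference. The count of S100 genes past the threshold in KO against WT, 1 in each arm, was 0 without a filter on low values, 0 with eBayes without trend and 0 in a fit to only the libraries compared, in each arm. It was 0 to 1 unirradiated and 0 to 2 after RT with the libraries left out singly; the unirradiated call was lost without WT replicates 1 or 3 or KO replicates 1 or 3, and the irradiated call without any of the 6 irradiated libraries. With the replicate block the count was 0 in each arm (S100A11 adjusted p = 0.061 and 0.064). Replicate numbers did not pair the libraries: deviations of the 18 same-numbered pairs correlated at −0.06 to 0.06, and a library correlated best with its own number in 10 of 36 cases. Among the partner, inducer and differentiation genes named without such a count, calls held in 15 of 20 alternatives for PPP5C and 17 of 20 for ANXA2 in irradiated KO against WT, in 14 for IL1B, 17 for SPRR1B and 13 for TGM1 with radiation in WT, and in 19 for PPP5C and CEBPB with radiation in KO. The radiation counts stayed at 0 of 10 in each alternative, including the block.

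Over all genes, the count called in unirradiated KO against WT was 276 and fell to 103 in a fit to only the libraries compared and to 172 at the lowest with a library left out. For irradiated KO against WT the counts were 573, 252 and 313, with 378 under the block. For radiation in WT they were 597, 166 and 242, with 315 under the block, and for radiation in KO 590, 195 and 268, with 359 under the block. The difference between the radiation effects called 3 genes, 7 without a filter, 1 without trend, 1 under the block and 1 to 9 with a library left out. Median-of-ratios scaling moved the share of calls that were higher from 26.8% to 37.6% in unirradiated KO against WT, from 59.8% to 49.5% for radiation in WT and from 54.1% to 41.7% for radiation in KO. The cause of these changes was not tested. TPM holds no depth, so low levels, as for S100A7, S100A8 and S100P, carry an unknown counting error.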
